A study of Mus musculus with 6 samples.

Results

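The genes described here are 10 genes of the smooth muscle contractile apparatus and cytoskeleton (*Acta2*, *Actg2*, *Myh11*, *Myl9*, *Mylk*, *Tagln*, *Cnn1*, *Lmod1*, *Des* and *Synm*) in RNA-Seq of mouse colonic crypts. They were chosen by name and not by a threshold on their values, though with earlier results of these data known, and all 10 were among the 18049 genes of the table. Total RNA of crypts from 3 control and 3 GSK503-treated mice was sequenced, with 1 library per labelled sample, to ask what an inhibitor of the histone methyltransferase EZH2 changes in the crypts of a mouse model of Lynch syndrome. Treated mice received GSK503 at 200 μg/kg by repeated tail vein injection, and control mice received the vehicle, 20% captisol in PBS. All 6 mice, controls included, carried a *Villin-Cre* transgene, which acts in the intestinal epithelium and not in muscle, together with a humanized *TgfβRII* knockin on a C57BL/6J background, and were fed a Western-style diet. The labels give neither age nor sex. *Xist*, transcribed from an inactive X chromosome, lay between 0.419 and 0.936 across control mice, versus between 825 and 1236 across treated mice, and the Y-linked *Uty* lay at 42.5 or above in the control mice and at 1.08 or below in the treated mice. Sex and treatment therefore cannot be told apart in any comparison below.

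Smooth muscle contracts when calcium and calmodulin activate myosin light chain kinase, which phosphorylates the myosin regulatory light chain and lets smooth muscle myosin pull on actin. In the colon it forms the muscularis propria, the thin muscularis mucosae just under the crypts, and the walls of blood vessels. Crypts themselves are epithelial, and they are freed from the underlying tissue by chelation and shaking. Values are TMM-scaled CPM (estimated counts relative to a library size that edgeR's TMM method adjusted), here called values. The 6 libraries came to an estimated 108162848 to 135085027 counts, so that 3 counts were worth between 0.0228 and 0.0271. The epithelial identity of the libraries was clear from *Krt8* (between 4505 and 6090), *Epcam* (between 1802 and 2032) and *Cdh1* (between 1111 and 1292), and these ranges overlapped between the groups.

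The regulatory sequence of these genes is best known for the CArG box, a run of A and T between a pair of C and a pair of G that is bound by serum response factor and has the same form on both strands. In the 250 bases before the start of the annotated canonical transcript (GENCODE, GRCm39), 1 of the 10 genes, *Tagln*, held a perfect CArG box, beginning 64 bases before the start, and 1.40% of the windows of all 21757 protein-coding genes held one. The windows of *Tagln*, of *Acta2* and of *Mylk* are shown because *Tagln* held the match, *Acta2* is the classical smooth muscle marker without one in this window, and *Mylk* differed from the other genes in the data below. Capitals mark the CArG box, and the *Mylk* window lies within the gene, since longer transcripts of *Mylk* start farther upstream. Among the windows not shown, that of *Des* also lies within its gene. Those of *Synm* and *Myl9* lie in annotated exons over all 250 bases.
Tagln, GRCm39 chr9:45847405-45847654, minus strand: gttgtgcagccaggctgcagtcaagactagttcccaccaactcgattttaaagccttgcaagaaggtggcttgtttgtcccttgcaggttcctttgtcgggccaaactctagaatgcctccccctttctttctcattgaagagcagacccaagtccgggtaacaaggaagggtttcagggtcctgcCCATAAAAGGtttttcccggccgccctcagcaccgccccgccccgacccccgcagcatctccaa
Acta2, GRCm39 chr19:34232991-34233240, minus strand: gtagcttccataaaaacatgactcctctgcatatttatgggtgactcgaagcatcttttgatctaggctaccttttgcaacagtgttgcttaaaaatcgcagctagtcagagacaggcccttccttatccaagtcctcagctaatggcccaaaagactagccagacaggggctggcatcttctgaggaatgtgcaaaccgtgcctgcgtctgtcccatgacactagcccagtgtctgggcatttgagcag
Mylk, GRCm39 chr16:34605041-34605290, plus strand: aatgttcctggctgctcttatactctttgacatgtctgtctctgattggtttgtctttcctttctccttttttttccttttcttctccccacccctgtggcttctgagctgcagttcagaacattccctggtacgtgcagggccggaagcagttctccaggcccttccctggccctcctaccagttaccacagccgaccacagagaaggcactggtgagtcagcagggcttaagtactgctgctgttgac
The absence of capitals in the other windows says only that these letters were not found there.

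Across the 6 mice the smooth muscle genes other than *Mylk* varied far more within the GSK503 group than between the groups. Treated mouse 3 had the highest value of all 6 mice for 9 of the 10 genes, and treated mice 1 and 2 lay below all 3 control mice for 9 of the 10 genes. For 8 genes (all except *Synm* and *Mylk*) both held, and the control mice then always ranked in the order 2, 3 and 1. Among all 16670 genes tested, 17.1% were highest in treated mouse 3, 16.1% were lower in treated mice 1 and 2 than in every control mouse, and 2.82% showed both. From the lowest to the highest library, 7 of these 8 genes spanned between 10.7-fold (*Tagln*) and 327-fold (*Des*), and *Lmod1*, at 0 in treated mouse 2, spanned at least 75.2-fold against the value of 3 counts in that library, whereas *Synm* spanned 6.60-fold and *Mylk* 1.40-fold. Since these are bulk libraries, fewer muscle cells and less RNA per muscle cell cannot be told apart.

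**Figure D1:**
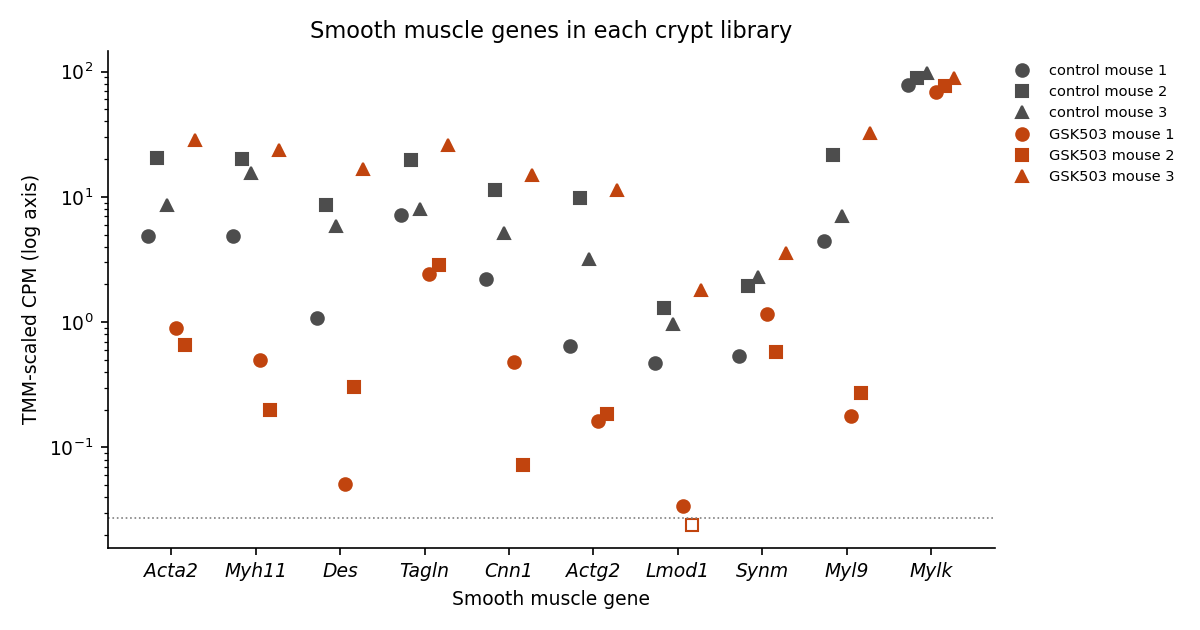
Value of each of the 10 smooth muscle genes in each library (TMM-scaled CPM, log axis), with gray symbols for control mice and orange symbols for GSK503-treated mice. The open square stands for *Lmod1* at 0 in treated mouse 2, drawn at the value of 3 counts, and the dotted line is the highest value of 3 counts in any library (0.0271). The orange triangles of treated mouse 3 lie at the top for every gene except *Mylk*, and the orange circles and squares of treated mice 1 and 2 lie at the bottom for every gene except *Synm*.

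The smooth muscle actins are the thin filament proteins of these cells. *Acta2* (ENSMUSG00000035783, chromosome 19 of GRCm39 from 34217737 to 34232990) encodes smooth muscle α-actin, found in vascular and visceral muscle, pericytes and myofibroblasts. Its value was 4.84, 20.6 and 8.57 across control mice 1, 2 and 3, versus 0.890, 0.653 and 28.5 across treated mice 1, 2 and 3. *Actg2* (ENSMUSG00000059430, chromosome 6 from 83489887 to 83513551), the γ-actin of visceral muscle, was at 0.639, 9.76 and 3.20 across control mice, versus 0.161, 0.183 and 11.4 across treated mice. For both actins, treated mouse 3 was highest and treated mice 1 and 2 were lowest, so the controls fell between treated mouse 3 and the other treated mice. The control mice were themselves unequal, with control mouse 2 at 4.25 times control mouse 1 for *Acta2* and at 15.3 times for *Actg2*. No stretch of 76 bases, the length of a read, in the canonical transcript of any of the 10 genes recurred in a transcript of another annotated gene, although reads with mismatches could still have been divided between the actins.

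The motor of smooth muscle is built from the heavy chain *Myh11* and the regulatory light chain *Myl9*, and *Mylk* encodes the kinase that phosphorylates this light chain. *Myh11* (ENSMUSG00000018830, chromosome 16 from 14012399 to 14109236) had values of 4.91, 20.0 and 15.5 across control mice 1, 2 and 3, versus 0.500, 0.199 and 23.9 across treated mice 1, 2 and 3. *Myl9* (ENSMUSG00000067818, chromosome 2 from 156617084 to 156623579) had values of 4.48, 21.8 and 7.04 across control mice, versus 0.178, 0.271 and 32.1 across treated mice. In treated mice 1 and 2, these values stood for an estimated 59 and 25 counts of *Myh11* and 21 and 34 counts of *Myl9*, against 2870 and 3853 counts in treated mouse 3.

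*Mylk* (ENSMUSG00000022836, chromosome 16 from 34565580 to 34822790) behaved otherwise. It is expressed in many cell types besides muscle, where a longer form of the kinase is made. Its value was 77.9, 89.2 and 96.9 across control mice 1, 2 and 3, versus 69.1, 76.9 and 88.3 across treated mice 1, 2 and 3. All 6 mice thus lay within 1.40-fold, and treated mouse 3 lay inside the range of the controls. *Mylk* made up 74.7%, 43.6% and 63.1% of the summed value of the 10 genes in control mice 1, 2 and 3. In treated mice 1, 2 and 3 its share was 92.1%, 93.8% and 35.7%, so in treated mice 1 and 2 the sum over the 10 genes was almost entirely *Mylk*. The other 9 genes together came to 26.4, 115 and 56.5 across control mice, versus 5.89, 5.11 and 159 across treated mice.

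*Tagln*, *Cnn1* and *Lmod1* encode proteins that bind or organize actin filaments. *Tagln* (transgelin, ENSMUSG00000032085, chromosome 9 from 45840909 to 45847404) had values of 7.22, 19.7 and 7.95 across control mice 1, 2 and 3, versus 2.44, 2.85 and 26.2 across treated mice 1, 2 and 3. *Cnn1* (calponin, ENSMUSG00000001349, chromosome 9 from 22010512 to 22020926) had values of 2.21, 11.4 and 5.11 across control mice, versus 0.483, 0.0717 and 15.04 across treated mice. As for the actins, treated mouse 3 was highest and treated mice 1 and 2 were lowest for both genes, but *Tagln* kept more of its level in treated mice 1 and 2. *Tagln* stood at 1.49, 0.958 and 0.928 times the value of *Acta2* in control mice 1, 2 and 3, at 0.916 times in treated mouse 3, and at 2.74 and 4.36 times in treated mice 1 and 2. *Lmod1* (leiomodin, which nucleates actin filaments, ENSMUSG00000048096, chromosome 1 from 135252509 to 135295907) was the least abundant of the genes, with values of 0.472, 1.30 and 0.968 in the control mice. It was at 0.0339 in treated mouse 1, an estimated 4 counts, at 0 in treated mouse 2, where 3 counts would give 0.0239, and at 1.80 in treated mouse 3.

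The intermediate filament genes differed from each other. *Des* (desmin, ENSMUSG00000026208, chromosome 1 from 75320511 to 75345223), the main intermediate filament of muscle, was at 1.07, 8.64 and 5.90 across control mice 1, 2 and 3, versus 0.0509, 0.303 and 16.6 across treated mice 1, 2 and 3. Its span was the widest of the 9 genes with a value above 0 in every library, and the lowest value rested on an estimated 6 counts. *Synm* (synemin, a partner of desmin in the same filaments, ENSMUSG00000030554, chromosome 7 from 67379908 to 67409527) was at 0.540, 1.94 and 2.31 across control mice, versus 1.16, 0.581 and 3.57 across treated mice. *Synm* was therefore the only gene of the 10 for which a control mouse, control mouse 1, had the lowest value.

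Levels of different genes were compared per kilobase of the canonical transcript. On this scale the control medians were highest for *Mylk* (11.4 per kilobase), *Myl9* (5.08), *Tagln* (4.82), *Acta2* (3.07) and *Myh11* (2.37), followed by *Cnn1* (2.10), *Actg2* (1.96), *Des* (1.88), *Synm* (0.246) and *Lmod1* (0.237). Most neighbors in this order changed places between mice. *Tagln* exceeded *Acta2*, *Acta2* exceeded *Myh11*, and *Actg2* exceeded *Des* in 6 of 6 libraries, but *Mylk* exceeded *Myl9* in only 4 of 6, *Myl9* exceeded *Tagln* in 3 of 6, and *Cnn1* exceeded *Actg2* in 3 of 6. In control mouse 2 and treated mouse 3, the libraries with the most smooth muscle signal, *Myl9* was the highest of the 10 genes per kilobase, at 15.7 and 23.1.

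Ratios between genes also differed among libraries, as a description without a test. *Myh11* stood at 1.01, 0.971 and 1.81 times *Acta2* in control mice 1, 2 and 3 and at 0.562, 0.305 and 0.836 times in treated mice 1, 2 and 3. For *Actg2* over *Acta2* the ratios were 0.132, 0.474 and 0.374 across control mice, versus 0.181, 0.280 and 0.398 across treated mice. Control mouse 3 thus held more *Myh11* relative to *Acta2* than any other library, and control mouse 1 the least *Actg2*.

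To ask whether the genes differed with treatment, GSK503-treated and control mice were compared with limma on log2(value + 0.1) over the 16670 genes that reached 0.1 in 3 or more mice. All 10 smooth muscle genes passed this filter. By limma, none had an adjusted p below 0.05, where 0.144% of all genes tested were called lower (24 genes) and 0.498% higher (83 genes). Scaling by library size alone moved that split to 178 lower and 83 higher, and still called none of the 10. None had an unadjusted p below 0.05 either, where 13.3% of all genes did. Limma-voom on the counts recovered from the table also called none, with 2 of the 10 genes at an unadjusted p below 0.05. The log2FC (the difference on this log2 scale, GSK503 minus control) was negative for 9 of the 10 genes, where 51.1% of all genes were negative, and its median was -1.74 against -0.01 over all genes tested. It was lowest for *Myh11*, at -2.84 (95% interval -5.86 to 0.19, limma adjusted p = 0.410), and it was -2.58 for *Myl9* (interval -5.99 to 0.82) and -1.79 for *Acta2* (interval -4.43 to 0.84). For *Cnn1*, *Des*, *Lmod1* and *Actg2* it lay between -2.17 and -1.61, and for *Tagln* it was -0.86. The intervals of these genes were wide and all included 0. The log2FC of *Mylk* was -0.17 with a narrow interval from -0.42 to 0.07 (limma adjusted p = 0.543). That of *Synm* was 0.00 (interval -1.47 to 1.47, limma adjusted p near 1).

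For 1 of the 10 genes, *Des*, the direction differed between the linear and the log2 scale, while 8 genes had the lower mean in treated mice on both scales and *Synm* had the higher linear mean with a log2FC of 0.00. On the linear scale the mean of *Des* was 5.20 ± 3.83 across control mice, versus 5.66 ± 9.49 across treated mice (SD, n = 3 mice each), higher in the treated group although its log2FC was -1.97. *Acta2* had means of 11.3 ± 8.23 and 10.03 ± 16.0, and *Myl9* had means of 11.1 ± 9.33 and 10.8 ± 18.4 (SD, n = 3 mice each, control first). In each case the SD of the treated mice exceeded their mean, and the difference between the means was far smaller than the spread between mice. For 0 of the 10 genes did all 3 treated mice lie below all 3 control mice, where 9.22% of all genes tested showed this, and for 0 did they all lie above, where 9.84% did.

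Treated mouse 3 decided these comparisons. Without it, 5 of the 10 genes (*Myh11*, *Myl9*, *Acta2*, *Lmod1* and *Cnn1*) were called lower in the remaining 2 treated mice by limma, where 0.615% of the 16255 genes then tested were called lower. None of the 10 was then called higher, against 0.714% of those genes. *Myh11* then stood at a log2FC of -4.78 (95% interval -6.07 to -3.49) and *Myl9* at one of -4.80 (interval -6.11 to -3.49), both with a limma adjusted p of 0.0101. *Acta2* followed with a log2FC of -3.48 (limma adjusted p = 0.0221), *Lmod1* with -3.04 (0.0304) and *Cnn1* with -4.03 (0.0356). *Tagln* and *Des* came close to the threshold, with limma adjusted p of 0.0588 and 0.0594, while *Actg2* (0.109), *Mylk* (0.278) and *Synm* (0.635) did not pass it. Leaving out any other mouse left none of the 10 genes called. The labels give no reason to set treated mouse 3 aside, and its total of 124491662 estimated counts lay within the range of the other libraries.

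**Figure D2:**
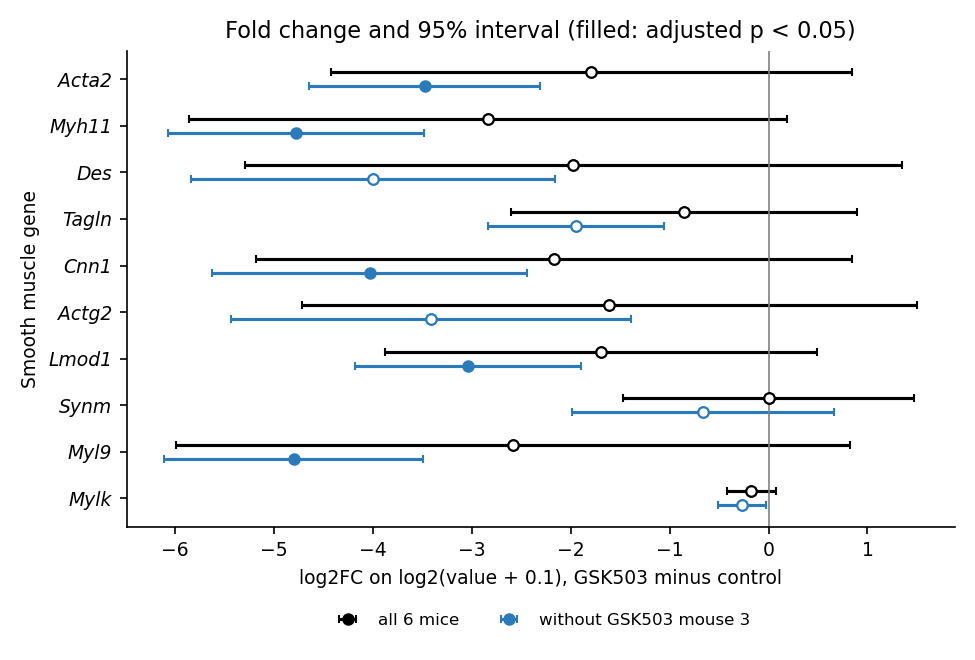
Log2FC of each smooth muscle gene on the log2(value + 0.1) scale with its 95% interval from limma, for all 6 mice (black) and without treated mouse 3 (blue). Filled points have an adjusted p below 0.05, which holds for none of the black points and for 5 of the blue points, and all black intervals include 0.

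The genes whose pattern over the 6 mice was most like that of the smooth muscle genes were sought among 12798 other genes with a mean value of at least 1. Likeness was the root mean square difference, over 6 libraries, between the centered log2(value + 0.1) of a gene and the mean centered profile of the 10 genes. The mean profile was -0.28, 1.71 and 0.92 across control mice 1, 2 and 3, versus -2.15, -2.36 and 2.16 across treated mice 1, 2 and 3. *Hmcn2*, which encodes an extracellular matrix protein, was closest, with a difference of 0.23. It was nearer to the mean profile than any of the 10 genes themselves, of which *Lmod1* (0.25) and *Acta2* (0.29) were nearest and *Mylk* (1.63) was farthest. The next were *Pgm5*, a muscle protein of cell attachment sites (0.38), and *Aspn*, a matrix proteoglycan (0.40), followed by *C1qb* (0.40), *Lyz2* (0.41), *Tns1* (0.43), *Igkv12-46* (0.45) and *C1qc* (0.47). *C1qb*, *C1qc* and *Lyz2* are macrophage genes and *Igkv12-46* is an immunoglobulin segment. *Lyz2*, for example, was at 11.9, 24.3 and 11.2 across control mice, versus 1.59, 1.65 and 30.9 across treated mice.

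**Figure D3:**
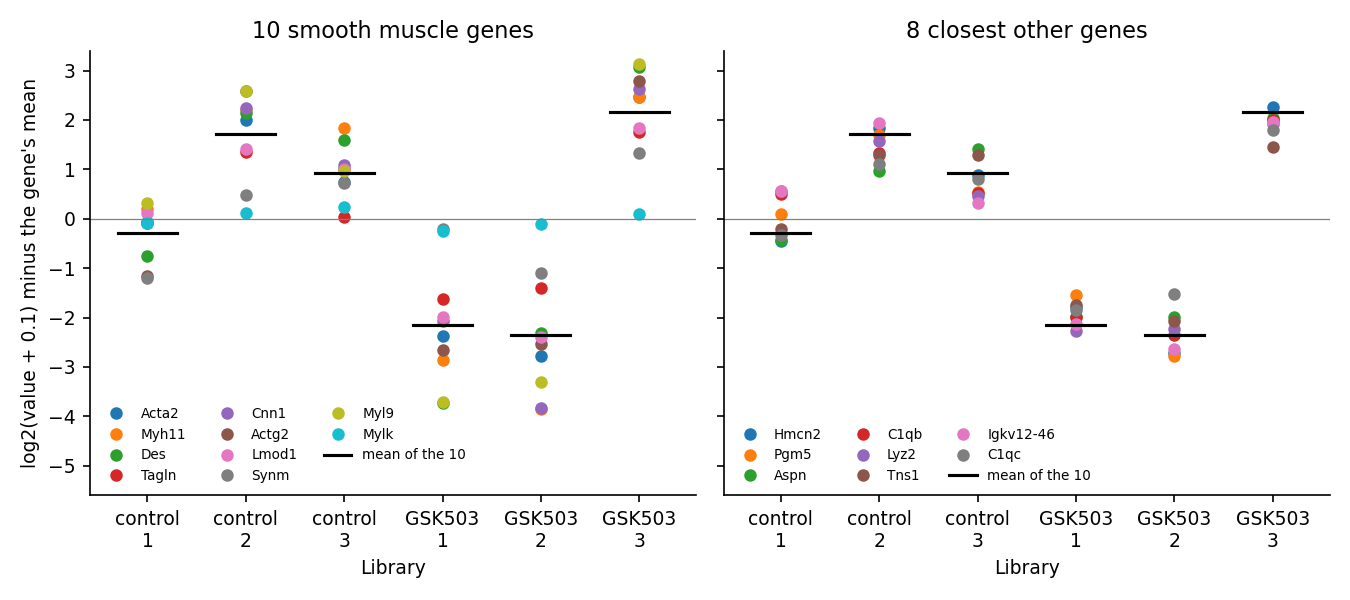
Centered log2(value + 0.1) in each library for the 10 smooth muscle genes (left) and for the 8 closest other genes (right), with black bars at the mean of the 10 smooth muscle genes. The bars lie at -2.15 and -2.36 in treated mice 1 and 2 and at 2.16 in treated mouse 3, and on the left *Mylk* stays near 0 in every library.

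Some of the other genes of the contractile system shared this order and others did not. Counts in this and the following lists stand beside these shares of all 16670 genes tested. By limma, 13.3% had an unadjusted p below 0.05, 0.144% were called lower and 0.498% higher. Treated mouse 3 was highest and treated mice 1 and 2 were lowest in 2.82%. Of 20 further contractile and cytoskeletal genes, none was called in either direction by limma, 2 had an unadjusted p below 0.05, and the median log2FC was -0.04. The 3 most abundant, *Dstn*, *Myl6* and *Tpm1*, which are also expressed outside muscle, had log2FC values of 0.23, 0.16 and 0.15 (limma adjusted p = 0.339, 0.496 and 0.389). In 5 of the 20, chosen after their values were seen (*Tpm2*, *Cald1*, *Pdlim3*, *Synpo2* and *Pgm5*), treated mouse 3 was highest and treated mice 1 and 2 were lowest, as in the 8 smooth muscle genes. The muscle tropomyosin gene *Tpm2* was at 4.50, 20.6 and 7.70 across control mice, versus 4.29, 3.74 and 22.5 across treated mice.

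Of 12 genes of myosin phosphorylation and cGMP signaling, which set the tone of the muscle, none was called by limma with all 6 mice, and 1 had an unadjusted p below 0.05. *Rock2* and *Rhoa*, among the most abundant, had log2FC values of -0.14 and -0.02 (limma adjusted p = 0.608 and 0.958). Without treated mouse 3, *Gucy1b1*, a subunit of the nitric oxide receptor, and *Ppp1r14a*, an inhibitor of myosin phosphatase, were called lower (limma adjusted p = 0.0295 and 0.0498, chosen after their values were seen). Of all genes then tested, 0.615% were called lower. *Gucy1b1* was at 0.609, 1.55 and 0.551 in the control mice, at 0 in treated mice 1 and 2, and at 1.22 in treated mouse 3.

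Among 10 transcriptional regulators, 9 were tested, none was called by limma, and 4 had an unadjusted p below 0.05, where 13.3% of all genes did. *Mrtfb* and *Srf*, a coactivator and the factor that binds the CArG box, had log2FC values of -0.45 and 0.20 (limma adjusted p = 0.168 and 0.351), and the log2FC of *Gata6* was 0.06 (limma adjusted p = 0.791). *Myocd*, the coactivator that is most restricted to muscle (chosen after its values were seen), was at or below 0.416 in every library and at 0 in control mouse 1. Of 12 calcium, channel and receptor genes, 11 were tested, none was called by limma, and 2 had an unadjusted p below 0.05, with a median log2FC of 0.02. *Atp2a2*, *Itpr1* and *Kcnma1* had log2FC values of -0.01, 0.02 and 0.39 (limma adjusted p = 0.983, 0.948 and 0.101). Among the genes of this list at low levels, chosen after their values were seen, *Kcnmb1*, *Pln* and *Chrm2* were at 0 in control mouse 1 and in treated mice 1 and 2, whereas *Tacr2* was at 0 in control mouse 1 only. The muscarinic receptor gene *Chrm3*, also chosen after its values were seen, had another order, with 7.34, 2.42 and 3.73 across control mice 1, 2 and 3, versus 13.4, 11.1 and 13.8 across treated mice 1, 2 and 3 (log2FC 1.62, limma adjusted p = 0.0665).

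Markers of other cells beneath the epithelium shared the order of the mice in part. The 9 macrophage markers summed to between 29.1 and 49.7 across control mice, versus 11.7, 8.03 and 66.7 across treated mice 1, 2 and 3, and only *Cd163* was at 0 in a library (treated mouse 1). Of these 9, 6 had treated mouse 3 highest and treated mice 1 and 2 lowest, where 2.82% of all genes did. None of the 9 was called by limma and none had an unadjusted p below 0.05. *Lyz2*, *C1qa* and *C1qb* had log2FC values of -1.72, -0.49 and -1.57 (limma adjusted p = 0.477, 0.761 and 0.517). The 9 fibroblast markers summed to between 77.1 and 94.8 across control mice, versus 51.8, 64.6 and 153 across treated mice 1, 2 and 3, and 5 of the 9 showed that order, among them *Col3a1* with a log2FC of -0.67 (limma adjusted p = 0.481). *Dcn* was above 0 (log2FC 0.27, limma adjusted p = 0.863), and *Fn1*, the only gene of these lists called with all 6 mice, was higher in treated mice (log2FC 1.44, limma adjusted p = 0.0240). *Fn1* was at 10.9, 6.39 and 11.2 across control mice, versus 25.9, 30.2 and 20.4 across treated mice 1, 2 and 3. It therefore weighed on the fibroblast sum, most of all in treated mice 1 and 2. *Lum* was at 0 in treated mouse 1. Without treated mouse 3, limma called 2 of the macrophage markers lower, and among the fibroblast markers 6 lower and *Fn1* higher. Of all genes then tested, 0.615% were called lower and 0.714% higher. The part of these cells in the differences between libraries was not tested.

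Vascular markers followed in part. The 7 pericyte markers summed to between 17.4 and 25.3 across control mice, versus 15.1, 11.3 and 28.6 across treated mice 1, 2 and 3, with none called by limma and none at an unadjusted p below 0.05. *Pdgfrb* weighed on the pericyte sum, at 12.0, 12.1 and 15.2 across control mice, versus 10.3, 8.36 and 12.8 across treated mice. Of the 7, 2 had treated mouse 3 highest and treated mice 1 and 2 lowest, where 2.82% of all genes did. *Rgs5*, 1 of these 2, was at 1.18, 7.07 and 2.75 across control mice, versus 0.0848, 0.0637 and 10.2 across treated mice (log2FC -2.13, limma adjusted p = 0.552). *Pdgfrb* and *Cspg4* had log2FC values of -0.33 and -0.13 (limma adjusted p = 0.459 and 0.894). The 8 endothelial markers summed to between 10.4 and 13.0 across control mice, versus 14.3, 12.6 and 21.5 across treated mice, with none called by limma and 1 at an unadjusted p below 0.05. *Vwf* made up most of this sum in treated mice 1 and 2. It was at 6.42, 4.91 and 6.38 across control mice, versus 12.1, 9.74 and 10.6 across treated mice 1, 2 and 3. The sum therefore does not show how the other endothelial markers varied. Of the 8, 5 had treated mouse 3 highest and treated mice 1 and 2 lowest, where 2.82% of all genes did. Without treated mouse 3, limma called 1 pericyte and 1 endothelial marker lower, against 0.615% of all genes then tested. *Vwf*, *Pecam1* and *Kdr* had log2FC values of 0.87, -0.24 and -1.03 (limma adjusted p = 0.0505, 0.868 and 0.558).

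Other lists did not follow the smooth muscle genes in their summed level. The 9 markers of enteric neurons and glia found in the table, of which 8 were tested, summed to between 9.22 and 12.3 across control mice, versus 7.59, 7.17 and 9.21 across treated mice 1, 2 and 3. *Ret*, the most abundant of them, weighed on this sum and ran from 9.83 in control mouse 3 to 2.87 in treated mouse 3. Gene by gene, treated mouse 3 was highest for 6 of the 8 tested, where it was highest for 17.1% of all genes. Only 1 of the 8 also had treated mice 1 and 2 lowest. None was called by limma and 1 had an unadjusted p below 0.05, and *Ret* and *Snap25* had log2FC values of -1.01 and -0.43 (limma adjusted p = 0.0920 and 0.711). The 5 markers of interstitial cells of Cajal summed to between 502 and 671 in all 6 libraries, with none called by limma and 1 at an unadjusted p below 0.05. *Thbs4*, *Ano1* and *Kit* had log2FC values of 0.01, 0.53 and 0.15 (limma adjusted p = 0.984, 0.135 and 0.711). Their means over the 6 mice were 289, 201 and 70.2, against 1.76 for *Etv1* and 0.179 for *Gjc1*, so the sum does not show how the last 2 varied. Treated mouse 3 was highest for 3 of the 5, and 0 of the 5 also had treated mice 1 and 2 lowest. Whether the abundant genes of this list came from interstitial cells was not tested. The striated muscle markers, of which 5 were in the table and 4 were tested, summed to between 5.17 and 9.62 with none called and none at an unadjusted p below 0.05, and *Acta1*, *Mylpf* and *Tnni2* had log2FC values of 0.48, 0.11 and -0.55 (limma adjusted p = 0.466, 0.910 and 0.711). The 4 mesothelial markers summed to between 2.09 and 9.23 with none called by limma and 2 at an unadjusted p below 0.05, and *Upk3b*, *Msln* and *Lrrn4* had log2FC values of 1.16, 0.65 and 1.79 (limma adjusted p = 0.143, 0.514 and 0.102). The 8 epithelial markers summed to between 10034 and 12355, with none called by limma, 2 at an unadjusted p below 0.05 and a log2FC of 0.19, 0.04 and 0.05 for *Krt8*, *Epcam* and *Cdh1* (limma adjusted p = 0.668, 0.926 and 0.892). Epithelial sums thus lay within a narrow range while the 9 smooth muscle genes without *Mylk* ranged from 5.11 to 159.

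**Figure D4:**
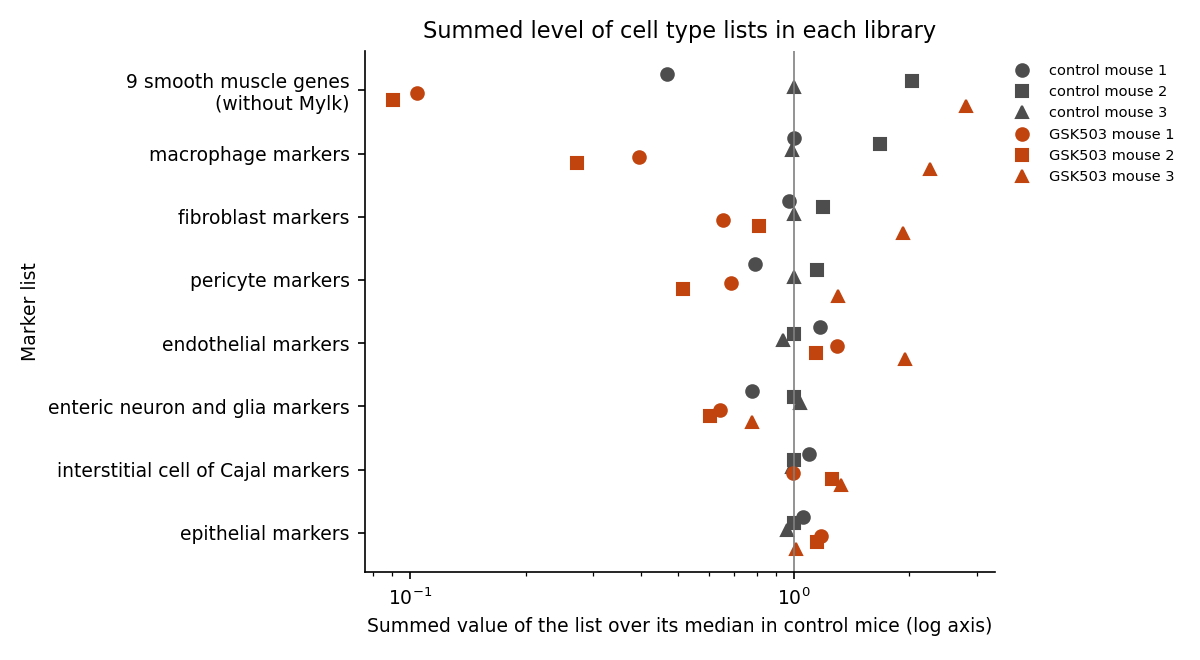
Summed value of each marker list in each library, divided by the median of the control mice (log axis), with gray symbols for control mice and orange symbols for GSK503-treated mice. The smooth muscle genes without *Mylk* range from 0.0904 to 2.81 times the control median, the macrophage markers from 0.272 to 2.26 times and the epithelial markers from 0.958 to 1.18 times. The fibroblast sums include *Fn1* and the endothelial sums include *Vwf*, each higher in every treated mouse than in any control mouse.

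*Ezh2* itself, whose product GSK503 inhibits, was at 46.7, 37.4 and 46.5 across control mice 1, 2 and 3, versus 36.6, 35.2 and 36.3 across treated mice 1, 2 and 3 (log2FC -0.27, limma adjusted p = 0.291). Treated mouse 3, which held the most smooth muscle signal, did not stand apart from treated mice 1 and 2 in *Ezh2* RNA. These RNA values do not measure inhibition of the enzyme, and how far it was inhibited in each mouse was not tested.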

How the data were processed

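Colonic crypt RNA of 3 control and 3 GSK503-treated mice was analyzed, with groups and replicate numbers from the sample labels. According to the paper's methods and the submitters' processing notes, the authors used STAR (alignment to GRCm39), RSEM (counts per gene) and the TMM scaling of edgeR. The deposited signal of a gene is thus TMM-scaled CPM, its estimated count relative to the adjusted library size. The smallest value seen at least 10 times below 1 was taken as the worth of 1 count, and between 75.2% and 78.0% of the values above 0 were whole multiples of it (tolerance 0.01), so the values were not treated as counts. The totals, and what 3 counts were worth, cover counting error alone.

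Because the values are scaled, groups were compared with limma (version 3.58.1, R 4.3.3; lmFit and eBayes with an intensity trend) on log2(value + 0.1), a scale on which changes of low genes come out too small. Genes that reached 0.1 in 3 or more mice were tested (16670 of 18049), with Benjamini-Hochberg adjustment over all of them and a threshold of 0.05. The study's own edgeR test was not repeated. Nothing in the labels says that samples came from separate litters or batches. The limma p-values set the difference between the groups against the spread of samples within them, which limma estimates in part from all genes tested. The 10 genes and the lists were chosen with earlier results of these data known. Named genes are the 10 genes, from each other list the 3 most abundant and any called, the 8 closest in pattern, and *Xist*, *Uty* and *Ezh2*. Some items that this rule would name are not reported here. Gene positions, transcript lengths and upstream windows came from GENCODE vM39 and the GRCm39 genome. The fit was tested on simulated data with known changes. Alternatives were 2 other scalings, 2 other pseudocounts, 2 other filters, no intensity trend, robust eBayes, limma-voom on recovered counts, a replicate block, and leaving out each mouse in turn. Tables and figures were made with Python 3.11.15, pandas 2.3.3, numpy 2.4.6 and matplotlib 3.10.9.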

Additional observations from a re-analysis of the deposited data

How the results depend on the processing

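Of 16 alternatives, 15 called 0 of the 10 smooth muscle genes. When single mice were dropped, the number called lower ranged from 0 to 5, and the 5 came without treated mouse 3. The median log2FC of the 10 genes ranged from -3.44 to -0.82 when single mice were dropped and was -0.77 with a pseudocount of 1. *Synm*, at 0.00 with all mice, turned to -0.10 with library size alone and to -0.0022 with a pseudocount of 0.01, and it ranged from -0.66 to 0.55 when single mice were dropped. Library size alone moved the median log2FC of all genes to -0.12 and the median of the 10 genes to -1.82.

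Over the whole table, 83 genes were called higher and 24 lower. Library size alone gave 83 higher and 178 lower, no intensity trend gave 9 higher and 7 lower, and leaving out each mouse gave between 20 and 116 higher and between 7 and 100 lower. The other lists held 1 called gene, against 2 with library size alone, with median-of-ratios scaling, with robust eBayes or with at least 1 in at least 3 mice, 0 without the trend, and between 0 and 13 when single mice were dropped. The causes were not tested.

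The labels do not say whether same-numbered mice were paired. Correlations across genes of the deviations from the group means were 0.03, -0.13 and -0.12 for same-numbered mice. For differently numbered mice they lay between -0.17 and 0.22. Deviations within a group of 3 mice must sum to 0, so these correlations cannot decide whether mice were paired. With a replicate block, 23 genes were called higher, 10 lower, and 0 in the other lists, and none of the 10 smooth muscle genes. Depth limits the low values in treated mice 1 and 2, such as *Lmod1* at 4 and 0 estimated counts.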
